A study of Mus musculus with 13 samples.

Results

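The difference between 2 responses to Aldara was measured in mouse skin keratinocytes with and without Cre-mediated deletion of Il12rb2. For each gene, the log2 change after Aldara in floxed mice was subtracted from the log2 change after Aldara in K14Cre mice. This difference is called the interaction. A positive interaction means that the K14Cre response lay above the floxed response, and a negative one that it lay below. All 13 of the 13 libraries of the series entered it, and 16051 of the 25746 genes in the count table had enough counts to be tested.

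The libraries were bulk RNA-seq libraries of interfollicular keratinocytes from C57/BL6 mice, isolated by FACS; these are the cells of the epidermis outside the hair follicles. Floxed mice carried Il12rb2fl/fl alleles and no Cre, and K14Cre mice had the genotype K14Cre/+ Il12rb2fl/fl, so both genotypes carried the floxed alleles. There were 3 floxed untreated, 3 floxed Aldara, 4 K14Cre untreated and 3 K14Cre Aldara libraries. Aldara is a cream with 5% imiquimod, and it was applied to the skin for 1 day. The K14 promoter drives Cre in keratinocytes, so a deletion in other cells of the skin is outside the model's design. Mice given a cream without imiquimod, mice with Cre and no floxed alleles and the age of the mice were not analysed here. The labels do not say that the libraries came from separate animals, and the p-values therefore reflect only how these samples varied, possibly for technical reasons.

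Il12rb2 encodes the signalling chain of the interleukin-12 receptor, which pairs with Il12rb1 and passes the signal to JAK kinases and STAT4. Il12rb1 also serves the receptor for interleukin-23, the cytokine that sustains interleukin-17-producing cells. Imiquimod activates Toll-like receptor 7 and is widely used in mice to produce a skin inflammation that resembles psoriasis. An interaction asks whether a genotype alters the size of a response, which is a different question from whether the genotypes differ or whether each of them responds.

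Il12rb2 itself was checked first, because it is the floxed gene. Its level, in CPM, a count divided by the library's total and brought to a common scale, adjusted by library scaling factors, was 17.1, 78.8 and 52.7 in the floxed untreated libraries and 1.98, 8.14 and 2.68 after Aldara. It was 22.7, 8.52, 25.6 and 19.0 CPM in the K14Cre untreated libraries, and 0, 1.07 and 1.64 CPM after Aldara. The untreated genotypes overlapped, while every K14Cre Aldara library lay below every floxed Aldara library. Il12rb2 lies on chromosome 6 from 67291318 to 67376188 of GRCm38. The floxed exons are not named in the sources used here, and a count over the whole gene includes reads from exons that remain, so these levels check the deletion only in part. The K14Cre level was lower by a log2 fold change of -1.38 (SE 0.69, edgeR adjusted p = 1.00) without treatment and -2.14 (SE 0.83, edgeR adjusted p = 0.982) after Aldara. Il12rb2 fell after Aldara in floxed libraries by 3.56 (SE 0.83, adjusted p = 0.0192) and in K14Cre libraries by 4.33 (SE 0.86, adjusted p = 0.00391) on the log2 scale. Its interaction was -0.76 (SE 1.06), with a 95% interval from -3.03 to 1.5. On mean log2 CPM the interaction was -1.18, with an exact two-sided permutation p of 0.576 over the 700 assignments of genotype within treatment, of which the smallest possible is 0.00143. This permutation assumes that the genotypes do not differ in either state, so it is not an exact test of the interaction alone. Without floxed Aldara replicate 2 the fitted interaction of Il12rb2 was 0.07. Il12rb1, the partner chain, was at 0, 0.426 and 0 CPM in floxed untreated, 0, 1.74 and 5.89 in floxed Aldara, 0.257, 0.594, 0 and 0.961 in K14Cre untreated and 12, 3.43 and 3.56 in K14Cre Aldara libraries. Its interaction of -0.49 had an SE of 2.09, so the comparison of Il12rb1 was imprecise.

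Library totals ranged from 5830034 to 22232478 counts. Interfollicular keratinocyte markers such as Krt5 and Krt14 were abundant in every library, with a summed level of 12 markers from 14989 to 68472 CPM. The predicted gene Gm10800 took 14.2% of the counts of floxed untreated replicate 2, 5.21% of K14Cre untreated replicate 1 and 10.3% of K14Cre untreated replicate 2. On the second principal component of log2 CPM, which carried 20.2% of the variance, K14Cre untreated replicates 3 and 4 lay at -113 and -109 and replicates 1 and 2 at 32.5 and 78.4. Replicates 3 and 4 had a count for 14320 and 14620 genes, against 21410 and 21097 in replicates 1 and 2. The floxed untreated libraries were also spread on the second component, with replicates 1, 2 and 3 at 16.1, 107 and -52.1. These floxed libraries had a count for 18595, 22430 and 15896 genes. On the first component (27.3% of the variance) K14Cre Aldara replicate 1 stood at 159, against 38.3 to 63.0 for the other Aldara libraries. The labels give the libraries running numbers whose meaning is not stated. The floxed untreated libraries carry 1, 3 and 6, and the K14Cre untreated libraries 15, 16, 23 and 24. Anything that goes with these numbers cannot be told apart from genotype in the untreated groups.

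No gene of the 16051 tested passed an adjusted p of 0.05 for the interaction in edgeR's quasi-likelihood test, a share of 0%. At an unadjusted p under 0.05 there were 539 genes (3.36%), of which 204 were positive (1.27%) and 335 negative (2.09%). Only 4 genes had an unadjusted p under 0.001. Limma's voom called 0 genes, with 729 at an unadjusted p under 0.05, and voom with sample quality weights also called 0, with 765. DESeq2 called 2 genes, Ccdc80 and Grk3, with 682 at an unadjusted p under 0.05. The median interaction over all genes was 0.0073, and the middle 50% of genes lay between -0.44 and 0.46 on the log2 scale. Without the 3 libraries high in Gm10800, edgeR again called 0 genes, and 974 (6.14%) had an unadjusted p under 0.05. Without K14Cre untreated replicates 3 and 4, a choice made after seeing the data, it called 0 genes, and 375 (2.17%) had an unadjusted p under 0.05.

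The responses that the interaction compares were large by the same test. Aldara changed 1132 genes in floxed libraries (7.05% of those tested; 666 or 4.15% rose and 466 or 2.90% fell) and 2489 in K14Cre libraries (15.5%; 1254 or 7.81% rose and 1235 or 7.69% fell). The K14Cre response rests on 1 more untreated library than the floxed one, and these counts do not test the difference between the responses. They also depended on single libraries. The floxed count was 215 without floxed untreated replicate 2, 288 without floxed untreated replicate 3, 422 without floxed Aldara replicate 1 and 618 without floxed Aldara replicate 2. The K14Cre count was 1650 without K14Cre untreated replicate 1, and 1682, 1664 and 1864 without K14Cre Aldara replicates 1, 2 and 3. It was 1477 without K14Cre untreated replicates 3 and 4.

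A total of 942 genes were called in both genotypes, and all 942 changed in the same direction. They were 83.2% of the floxed calls and 37.8% of the K14Cre calls. The 2 responses share no library. Genes that rose in floxed libraries had a median response of 1.26 there and 1.22 in K14Cre, and genes that fell in floxed libraries had medians of -1.68 and -1.72. These gene sets were chosen on the floxed response, so the floxed medians are partly a result of the choice. The sets chosen on the K14Cre response carry the same limit in the other direction, and a median interaction of the sign of the K14Cre response is built into them. Genes that rose in K14Cre libraries had medians of 1.20 in K14Cre and 0.97 in floxed. Genes that fell in K14Cre libraries had medians of -1.66 in K14Cre and -1.07 in floxed. Across the 10104 genes whose average log2 CPM reached 3, the responses had a Pearson r of 0.80, given as a description because genes are not independent replicates.

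**Figure D1:**
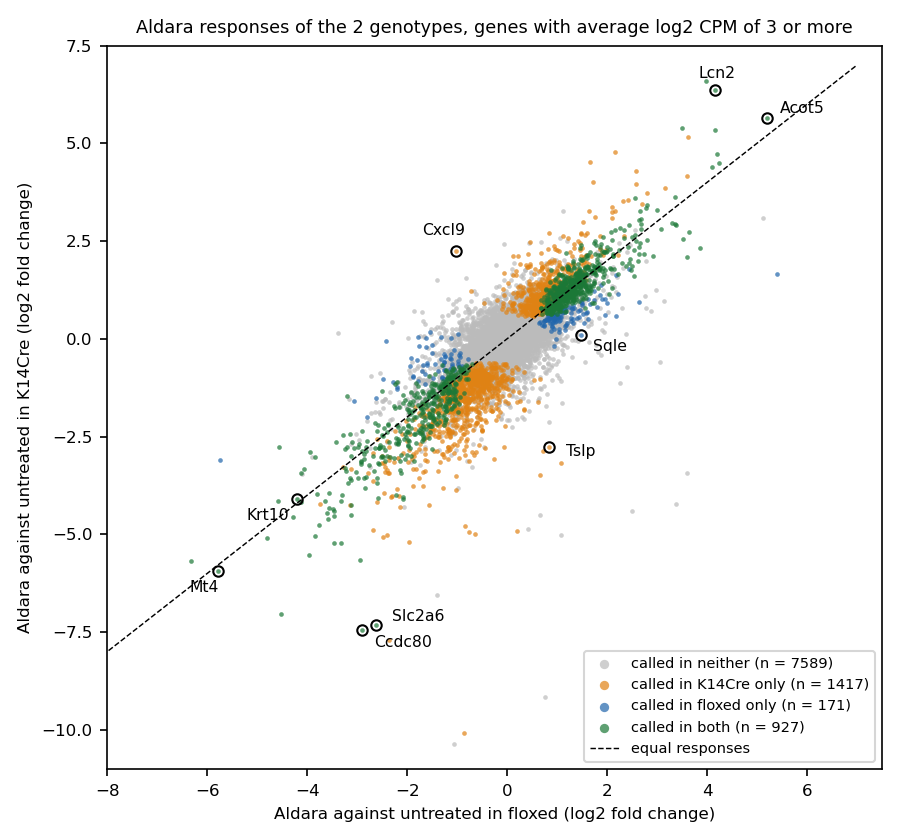
Log2 fold change after Aldara in floxed libraries (horizontal axis) against that in K14Cre libraries (vertical axis), for the 10104 genes whose average log2 CPM reached 3, coloured by the genotype in which edgeR called the gene. The interaction of a gene is its vertical distance from the dashed line; Krt10 and Mt4 lie close to it, and Ccdc80, Slc2a6 and Tslp lie below it.

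Krt10, a keratin of the suprabasal epidermis, had 956, 2024 and 1999 CPM in floxed untreated libraries and 72.6, 118 and 80.6 CPM after Aldara. In K14Cre libraries it had 2295, 1298, 2488 and 2040 CPM without treatment and 22.4, 164 and 169 CPM after Aldara. Treated libraries lay below untreated ones in both genotypes without overlap, as did 27.8% of all genes tested in floxed libraries and 29.0% in K14Cre libraries, counting either direction. Krt10 fell by 4.20 in floxed (adjusted p = 0.00292) and by 4.10 in K14Cre (adjusted p = 0.000729), and its interaction was 0.10 (SE 0.72, 95% interval -1.43 to 1.64). Mt4, a metallothionein of stratified epithelia, had an interaction of -0.15 (SE 1.05), and Acot5, a peroxisomal acyl-CoA thioesterase, one of 0.45 (SE 1.21). Their intervals, from -2.39 to 2.08 and from -2.13 to 3.03, included more than 2 log2 units in either direction. Lcn2, the antimicrobial siderophore-binding lipocalin, rose by 4.17 in floxed (adjusted p = 0.0425) and by 6.36 in K14Cre (adjusted p = 0.00197). Its interaction of 2.19 (SE 1.40) became -0.67 without floxed untreated replicate 1, where Lcn2 stood at 130 CPM against 2.99 and 9.87 in the other floxed untreated libraries.

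The precision of the interaction set what could be seen. The 95% interval of a gene's interaction had a median half-width of 1.44 on the log2 scale, from 0.72 at the 10th percentile to 5.54 at the 90th. It narrowed with expression, from a median of 5.44 for the 3321 genes with an average log2 CPM up to 1 to 0.75 for the 1346 genes above 7. For 2371 genes (14.8%) the whole interval lay within 1 log2 unit of 0, so a difference in response of more than 2-fold in either direction was outside it. For 8058 genes (50.2%) it lay within 2 log2 units. Among the 1132 genes that Aldara changed in floxed libraries, 361 (31.9%) had intervals within 1 log2 unit and 939 (83.0%) within 2. Among the 2489 changed in K14Cre libraries these were 570 (22.9%) and 1825 (73.3%). For the other genes the interval reached past these limits, either because it was wide or because the estimate itself was large. An interval that did not include 0 was found for 539 genes (3.36%). By construction these are the genes with an unadjusted p under 0.05, because the interval and the p come from the same F statistic.

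**Figure D2:**
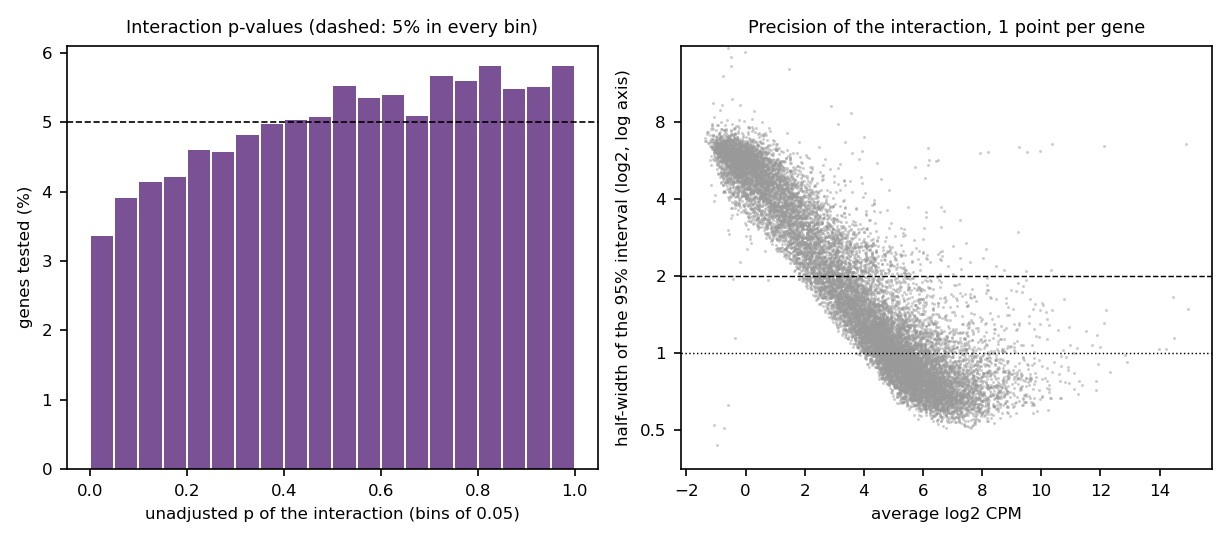
Left, share of the 16051 tested genes in each bin of 0.05 of the unadjusted interaction p, with a dashed line at 5%; the lowest bin holds 3.36%. Right, half-width of the 95% interval of the interaction (log axis) against average log2 CPM, 1 point per gene, with lines at 1 and 2; the 14 genes outside 0.35 to 16 are not drawn.

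A gene's libraries were also compared pair by pair. For 76 genes (0.473%) every K14Cre difference between an Aldara and an untreated library (12 pairs) lay above every floxed difference (9 pairs), and for 61 genes (0.380%) every one lay below. Pairs share libraries, so these are counts of separation and not a test. The genes described next were mostly those with the smallest interaction p in each direction, 12 positive and 12 negative, at an average log2 CPM of 3 or more. Tslp, Cxcl10, H2-Aa and most genes named with the lists were among the 3 with the smallest p of their list. Lcn2, S100a8, Krt6b and Krt19 were named for a large Aldara response, and some others after their values were seen. Apart from Krt5 and Krt14, which were always named, all were chosen on these same data. The values of the chosen genes therefore describe the extremes of this data set and support nothing by themselves. Of the 12 negative genes 9 had pairs apart in this way, and of the 12 positive genes 10.

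Ccdc80, which encodes a secreted protein of the extracellular matrix, had the smallest p. It lies on chromosome 16 from 45093402 to 45128077. Its level was 18.7, 19.6 and 71.9 CPM in floxed untreated libraries and 5.11, 4.07 and 5.45 CPM after Aldara. It was 91.0, 56.2, 37.1 and 47.8 CPM in K14Cre untreated libraries and 0.614, 0.0714 and 0.342 CPM after Aldara. The untreated genotypes overlapped, and the treated ones stood apart, with 80, 35 and 112 counts in floxed Aldara libraries and 6, 1 and 5 counts in K14Cre Aldara libraries. Ccdc80 fell in both genotypes, by 2.91 in floxed (SE 0.56, adjusted p = 0.00935) and by 7.45 in K14Cre (SE 0.73, adjusted p = 0.000160). The interaction was -4.54 (SE 0.85, 95% interval -6.35 to -2.74, unadjusted p = 7.76e-05, edgeR adjusted p = 1.00). DESeq2 gave -4.56 with an adjusted p of 0.000754. EdgeR called it without floxed untreated replicate 3 (-5.48, adjusted p = 0.0492), which held the highest floxed untreated level. Over 1 library left out at a time the interaction ranged from -5.48 to -4.04.

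Summed markers of fibroblasts, which also make matrix proteins, moved in the same direction as Ccdc80. They summed to 1369 to 1874 CPM in floxed untreated, 374 to 669 in floxed Aldara, 1324 to 3033 in K14Cre untreated and 351 to 543 in K14Cre Aldara libraries. None of the 16 markers was at 0 in every library. Their part in the Ccdc80 result was not tested. In bulk samples fewer cells of a type and less RNA per cell cannot be told apart.

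3 other genes had the same shape, with genotypes that were close or overlapped without treatment and a lower K14Cre level after Aldara. Slc2a6, a sugar transporter of the facilitative glucose transporter family, had 7.88, 22.5 and 9.78 CPM in floxed untreated libraries and 1.28, 4.42 and 0.925 CPM after Aldara. In K14Cre it had 14.5, 12.7, 18.7 and 39.5 CPM without treatment and 0, 0.0714 and 0.274 CPM after Aldara. The K14Cre Aldara values rest on 0, 1 and 4 counts, so the size of the fold is poorly determined. The interaction of Slc2a6 was -4.68 (SE 1.15, unadjusted p = 0.000998, edgeR adjusted p = 1.00), from -6.10 to -3.73 with 1 library left out.

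Slco4a1, an organic anion transporter, had 8.77, 13 and 21.5 CPM in floxed untreated libraries and 6.39, 6.51 and 11.3 CPM after Aldara. In K14Cre it had 26.1, 8.71, 31.0 and 40.4 CPM without treatment and 0, 0.928 and 1.85 CPM after Aldara. It fell in K14Cre by 4.79 (adjusted p = 0.00203), the floxed value was -0.83 (adjusted p = 0.585), and the interaction was -3.95 (SE 1.07, unadjusted p = 0.00214). Tnip3, which binds the deubiquitinase A20 and restrains NF-kB, had 3.09, 22.8 and 12.8 CPM in floxed untreated libraries and 1.66, 10.2 and 10.8 CPM after Aldara. It had 17.9, 15.8, 35.6 and 58.0 CPM in K14Cre untreated libraries and 1.33, 0.714 and 1.09 CPM after Aldara. Its interaction was -4.16 (SE 1.07, unadjusted p = 0.00141) in edgeR. Floxed Aldara replicate 1, at 1.66 CPM, was close to the K14Cre Aldara libraries, and the pairwise differences overlapped. K14Cre untreated replicates 3 and 4 were the highest of their group in Slc2a6, Slco4a1 and Tnip3. Without those replicates the interaction was -4.05 for Slc2a6, -3.35 for Slco4a1 and -3.24 for Tnip3.

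In another set of genes the genotypes lay apart without treatment and close together after Aldara. Tslp, an epithelial cytokine that acts on dendritic cells and type 2 lymphocytes, was the most marked among the keratinocyte cytokines. Its level was 14.2, 3.73 and 12.8 CPM in floxed untreated libraries and 2.75, 30.7 and 22.5 CPM after Aldara. It was 91.7, 18.6, 198 and 182 CPM in K14Cre untreated libraries and 6.96, 26.5 and 20.0 CPM after Aldara. Every K14Cre untreated library lay above every floxed untreated one, and the treated genotypes overlapped. Tslp fell in K14Cre by 2.78 (SE 0.82, adjusted p = 0.0328), and its floxed value was 0.84 (SE 0.82, adjusted p = 0.626). The interaction was -3.62 (SE 1.15, unadjusted p = 0.00642, edgeR adjusted p = 1.00). The 2 highest values belonged to K14Cre untreated replicates 3 and 4, without which the interaction was -2.48.

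Slc6a14, a broad amino acid transporter, repeated this order. It had 6.48, 6.18 and 5.68 CPM in floxed untreated libraries and 6.07, 4.77 and 17.8 CPM after Aldara. In K14Cre it had 45.5, 21.2, 84.1 and 142 CPM without treatment and 0.205, 11.1 and 8.28 CPM after Aldara. Untreated K14Cre libraries lay above all other libraries, and the interaction was -4.13 (SE 1.18, unadjusted p = 0.00317), or -3 without K14Cre untreated replicates 3 and 4. Plet1, a surface protein known from the upper hair follicle, had 199, 125 and 186 CPM in floxed untreated libraries and 217, 200 and 386 CPM after Aldara. It had 560, 340, 383 and 719 CPM in K14Cre untreated libraries and 192, 256 and 285 CPM after Aldara, where it fell by 1.04 (adjusted p = 0.0344). Its interaction was -1.69 (SE 0.45, unadjusted p = 0.00183), and -1.54 without those 2 replicates.

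Sqle, the squalene epoxidase of cholesterol synthesis, was called in the floxed response and not in the K14Cre response. It had 68.9, 48.4 and 63.3 CPM in floxed untreated libraries and 166, 194 and 142 CPM after Aldara, and it rose there by 1.47 (SE 0.28, adjusted p = 0.00839). In K14Cre libraries it had 82.8, 88.1, 152 and 158 CPM without treatment and 146, 133 and 110 CPM after Aldara, a response of 0.11 (SE 0.25, adjusted p = 0.843). K14Cre untreated replicates 3 and 4 already stood at the floxed Aldara level, and replicates 1 and 2 did not. The interaction was -1.37 (SE 0.38, unadjusted p = 0.00241, edgeR adjusted p = 1.00) and -0.87 without replicates 3 and 4, so the size depended on those libraries.

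The other negative genes were Lipg (endothelial lipase, -3.58), Asap1 (a GTPase-activating protein for ARF, -1.54), Snx13 (a sorting nexin, -1.43), Atf6 (a sensor of the unfolded protein response, -1.59) and Map7d1 (-1.86). Their unadjusted p ranged from 0.00160 for Asap1 to 0.00339 for Map7d1. Asap1 had 52.0, 61.0 and 48.5 CPM in floxed untreated, 27.8, 17.2 and 41.9 in floxed Aldara, 76.5, 68.1, 85.7 and 78.5 in K14Cre untreated and 12.4, 12.8 and 17.9 in K14Cre Aldara libraries. Every K14Cre untreated library lay above the floxed ones. After Aldara the K14Cre libraries were lower on average, although K14Cre replicate 3 at 17.9 CPM lay just above floxed replicate 2 at 17.2. Grk3, a kinase of G-protein-coupled receptors that DESeq2 called, had an average log2 CPM of 1.62, and its edgeR interaction was -4.86 (SE 1.16, unadjusted p = 0.000784); it was named after its values were seen.

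Prkacb, a catalytic subunit of protein kinase A, had the smallest p of the positive genes. Its level was 46.8, 44.9 and 42.1 CPM in floxed untreated libraries and 35.2, 32.4 and 29.3 CPM after Aldara. It had 38.5, 36.8, 17.7 and 25 CPM in K14Cre untreated libraries and 68.3, 53.4 and 45.6 CPM after Aldara. Floxed libraries were lower after Aldara and K14Cre libraries higher, in each case without overlap. Prkacb rose in K14Cre by 0.92 (SE 0.27, adjusted p = 0.0295), the floxed value was -0.46 (SE 0.29, adjusted p = 0.395), and the interaction was 1.39 (SE 0.39, unadjusted p = 0.00307, edgeR adjusted p = 1.00).

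Scai, a nuclear cofactor that represses MRTF-driven transcription, had 11.2, 21.2 and 13.2 CPM in floxed untreated libraries and 2.62, 3.25 and 2.63 CPM after Aldara, a fall of 2.42 (adjusted p = 0.0142). In K14Cre libraries it had 13.3, 13.3, 5.29 and 10.9 CPM without treatment and 13.4, 11.8 and 5.61 CPM after Aldara, a value of -0.06 (adjusted p = 0.958). The K14Cre groups overlapped throughout, and the interaction was 2.37 (SE 0.69, unadjusted p = 0.00359). Smyd5, a SET-domain lysine methyltransferase, had 37.4, 31.8 and 29.4 CPM in floxed untreated, 71.8, 50.4 and 49.1 in floxed Aldara, 15.2, 25.2, 29.0 and 24.9 in K14Cre untreated and 98.7, 75.7 and 91.7 in K14Cre Aldara libraries. Treated libraries were higher in both genotypes, and every K14Cre Aldara library was above every floxed one. Its interaction was 1.12 (SE 0.36, unadjusted p = 0.00759).

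The other positive genes, apart from the chemokine Cxcl9, are given with their interaction in parentheses. Zzef1 (1.37), the zinc finger protein Zfp263 (1.34), the polyadenylation factor Cpsf7 (1.11) and the carboxypeptidase Prcp (1.41) fell in floxed libraries. Rnf217, a ubiquitin ligase (1.65), had 16.4, 24.8 and 11.2 CPM in floxed untreated libraries and 7.28, 6.74 and 6.57 CPM after Aldara, with K14Cre libraries between 11.7 and 19.6 CPM in both states. Zfp281, a zinc finger transcription factor (1.95), rose in K14Cre by 1.23 (adjusted p = 0.0499). Acvr1b, a type I activin receptor (1.68), and Abcd4, a lysosomal transporter for vitamin B12 (1.27), passed the test in neither response. Zzef1, Zfp263, Cpsf7 and Prcp had K14Cre values between -0.22 and 0.13.

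**Figure D3:**
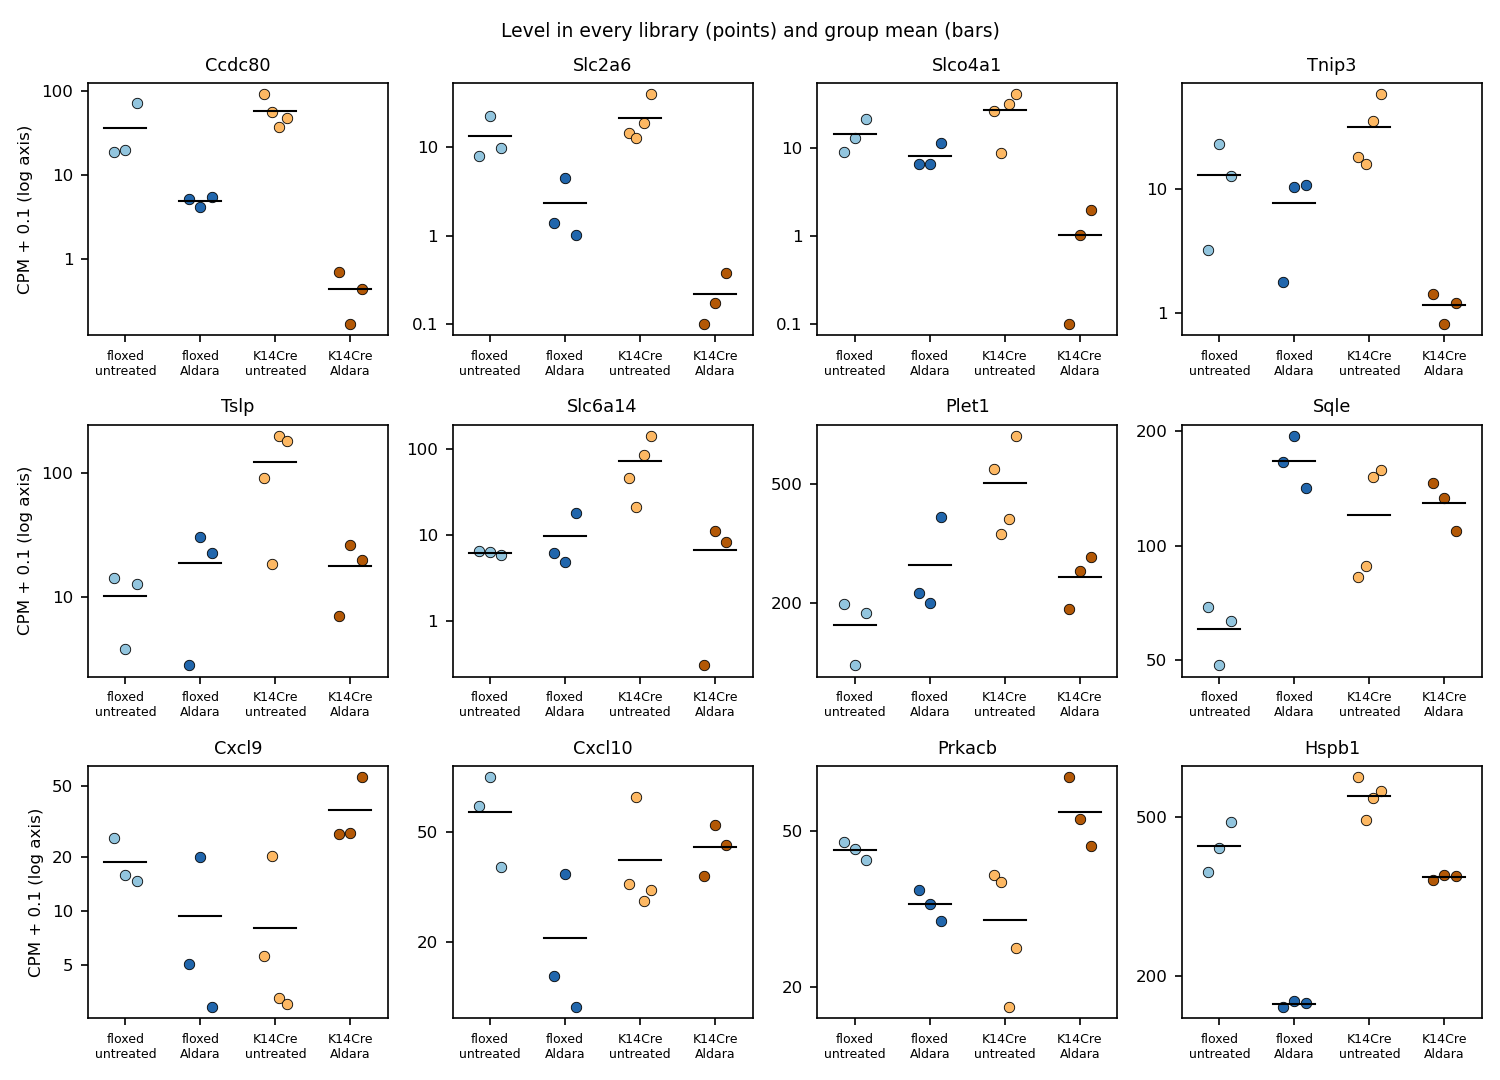
Level of 12 genes in every library (points; CPM plus 0.1, log axis) with the mean of each group (bars). In the upper row the K14Cre Aldara libraries lie low. In the middle row the K14Cre untreated libraries lie above the floxed untreated ones. In the lower row the K14Cre Aldara libraries lie above the floxed Aldara libraries for Cxcl9, Prkacb and Hspb1.

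Cxcl9 is a chemokine that is induced by interferon-gamma and attracts T cells through CXCR3, and it lies on chromosome 5 from 92321347 to 92328079. It had 25.6, 15.9 and 14.6 CPM in floxed untreated libraries and 4.98, 20.0 and 2.82 CPM after Aldara. It had 5.49, 20.2, 3.19 and 2.95 CPM in K14Cre untreated libraries and 26.7, 27.3 and 55.6 CPM after Aldara. K14Cre Aldara libraries were the highest of all, and 1 library in each of the floxed Aldara and K14Cre untreated groups stood near 20 CPM, where the others were below 6. Cxcl9 rose in K14Cre by 2.24 (SE 0.71, adjusted p = 0.0444), its floxed value was -1.03 (SE 0.76, adjusted p = 0.492), and the interaction was 3.27 (SE 1.04, unadjusted p = 0.00675, edgeR adjusted p = 1.00).

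Cxcl10, a related CXCR3 ligand that lies nearby on chromosome 5 (92346638 to 92348889), had 62.1, 79.0 and 37.2 CPM in floxed untreated libraries and 15.0, 35.2 and 11.6 CPM after Aldara, a fall of 1.54 (adjusted p = 0.0482). It had 32.5, 67.3, 28.2 and 30.8 CPM in K14Cre untreated libraries and 34.8, 53.0 and 44.8 CPM after Aldara, a value of 0.16 (adjusted p = 0.850). The interaction was 1.70 (SE 0.59, unadjusted p = 0.0115). H2-Aa, the alpha chain of an MHC class II molecule, had 56.2, 31.7 and 29.98 CPM in floxed untreated, 33.9, 41.7 and 37.7 in floxed Aldara, 13.4, 44.6, 16.2 and 19.9 in K14Cre untreated and 36.3, 74.8 and 114 in K14Cre Aldara libraries. It rose in K14Cre by 1.69 (adjusted p = 0.0141), the floxed value was -0.06, and the interaction was 1.75 (SE 0.62, unadjusted p = 0.0126). In these 3 genes K14Cre untreated replicate 2 was the highest of its group.

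Cxcl9, Cxcl10 and H2-Aa belong to a list of 30 interferon-gamma targets and antigen presentation genes, all of them tested. No member passed the interaction test. The interaction was positive for 27 members and negative for 3, where 50.6% of all genes tested were positive, and the list's median was 0.59 against 0.0073 for all genes. The summed level of the list overlapped between all groups, at 11350 to 15733.5 CPM in floxed untreated, 11271 to 13640 in floxed Aldara, 11215 to 16688 in K14Cre untreated and 10539 to 19213 in K14Cre Aldara libraries. K14Cre Aldara replicate 1 had the lowest sum of the 13 libraries. An unadjusted p under 0.05 was reached by 4 members, all positive, which were these 3 and H2-Eb1 (1.29). The median ranged from 0.20 without floxed untreated replicate 1 to 1.03 without K14Cre untreated replicate 2. In the floxed response 0 members rose and 1 fell, where 4.15% and 2.90% of all genes tested did. In the K14Cre response 3 rose and 1 fell, where 7.81% and 7.69% of all genes did; counts of other lists are read against the same shares. Members share regulators and libraries, so their common sign is a description and not a count of independent results. Langerhans cells and macrophages also carry MHC class II, and the summed level of 17 of their markers was 308 to 544 CPM in floxed untreated, 402 to 479 in floxed Aldara, 371 to 656 in K14Cre untreated and 418 to 525 in K14Cre Aldara libraries, with none at 0 in every library. Their part in the H2-Aa result was not tested.

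The 30 type I interferon targets, antiviral genes such as Isg15 and Bst2, had a median interaction of 0.83, with 27 positive and 3 negative, and 0 reached an unadjusted p under 0.05. The list's summed level was 376 to 2205 CPM in floxed untreated libraries and 225 to 1549 in K14Cre untreated libraries, where floxed replicate 1 and K14Cre replicate 2 stood far above the rest. After Aldara it was 1087 to 1826 CPM in floxed and 1021 to 1718 in K14Cre libraries, which overlapped. Without floxed untreated replicate 1 the median was -0.75, and without K14Cre untreated replicate 2 it was 2.66. The sign of this list's median therefore rested on floxed untreated replicate 1, and its size on K14Cre untreated replicate 2 as well. Isg15 moved from 2.01 to -1.13 and Bst2 from 2.15 to -0.61 without floxed untreated replicate 1.

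Type 3 cytokine targets are antimicrobial and neutrophil-attracting genes that respond to interleukin-17 or interleukin-22 in keratinocytes, and the study's title concerns type 3 immunity. Of 26 listed genes 17 were tested, 11 had a positive and 6 a negative interaction, and 0 reached an unadjusted p under 0.05. The summed level was 547 to 940 CPM in floxed untreated, 953 to 1780 in floxed Aldara, 723 to 1526 in K14Cre untreated and 1837 to 3517 in K14Cre Aldara libraries. Both genotypes were higher after Aldara without overlap, and the K14Cre Aldara sums lay above the floxed ones. In the floxed response 3 members rose and 0 fell, and in the K14Cre response 6 rose and 1 fell. Lcn2 and S100a8, an antimicrobial calcium-binding protein, rose in both genotypes. S100a8 had 2.58, 0 and 0.541 CPM in floxed untreated, 16.2, 29.2 and 13.9 in floxed Aldara, 0.600, 0.792, 0.544 and 12.2 in K14Cre untreated and 141, 47.3 and 106 in K14Cre Aldara libraries. The treated K14Cre libraries lay above the treated floxed ones, and K14Cre untreated replicate 4 lay close to the treated floxed level. Its interaction was 0.51 (SE 1.45), 3.08 without that replicate and -1.11 without floxed untreated replicate 1. Saa3, an acute-phase apolipoprotein, was at 0.147 to 1.60 CPM in floxed untreated, 1.47 to 3.02 in floxed Aldara, 0 to 0.792 in K14Cre untreated and 4.91 to 5.71 in K14Cre Aldara libraries. It rose in K14Cre by 4.66 (edgeR adjusted p = 0.0331), with an interaction of 3.48 (SE 1.86). In the K14Cre untreated libraries 3 counts would have been 0.192 to 0.594 CPM, so the size of the Saa3 rise is poorly determined. Zc3h12a, the RNase Regnase-1 that limits inflammatory mRNAs, had an interaction of -0.99 (SE 0.47). The list's median interaction was 0.64, from 0.13 without K14Cre Aldara replicate 1 to 1.26 without floxed Aldara replicate 2. The median half-width of the members' intervals was 3.37, so the list's precision was low.

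Genes of interleukin-12 and interleukin-23 signalling themselves (ligands, receptor chains, JAK and STAT members) had 10 negative and 4 positive members of 14 tested, a median interaction of -0.28, and 0 with an unadjusted p under 0.05. In the floxed response 2 members fell, and in the K14Cre response 3 fell. Il18r1, a receptor chain for interleukin-18, fell in K14Cre by 2.21 (edgeR adjusted p = 0.0248), with an interaction of -0.72 (SE 0.85).

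Il18 itself, the cytokine that acts together with interleukin-12 on lymphocytes, was low. It had 0, 0.426 and 1.62 CPM in floxed untreated, 0.702, 0 and 3.16 in floxed Aldara and 2.31, 1.78, 1.32 and 5.83 in K14Cre untreated libraries. In the 3 K14Cre Aldara libraries it had 0 counts, so no fold is given; 3 counts would have been 0.205 to 0.307 CPM there. Among 25 receptors for type 3 and other cytokines, 9 were positive and 16 negative, with a median of -0.18. Il17ra, a shared chain of the interleukin-17 receptors, had 36.5, 15.8 and 33.1 CPM in floxed untreated, 25.9, 36.5 and 18.3 in floxed Aldara, 76.8, 47.7, 61.5 and 42.9 in K14Cre untreated and 19.7, 33.0 and 21.2 in K14Cre Aldara libraries. Untreated K14Cre libraries lay above all the others, and the interaction of Il17ra was -1.13 (SE 0.50, edgeR unadjusted p = 0.0390).

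**Figure D4:**
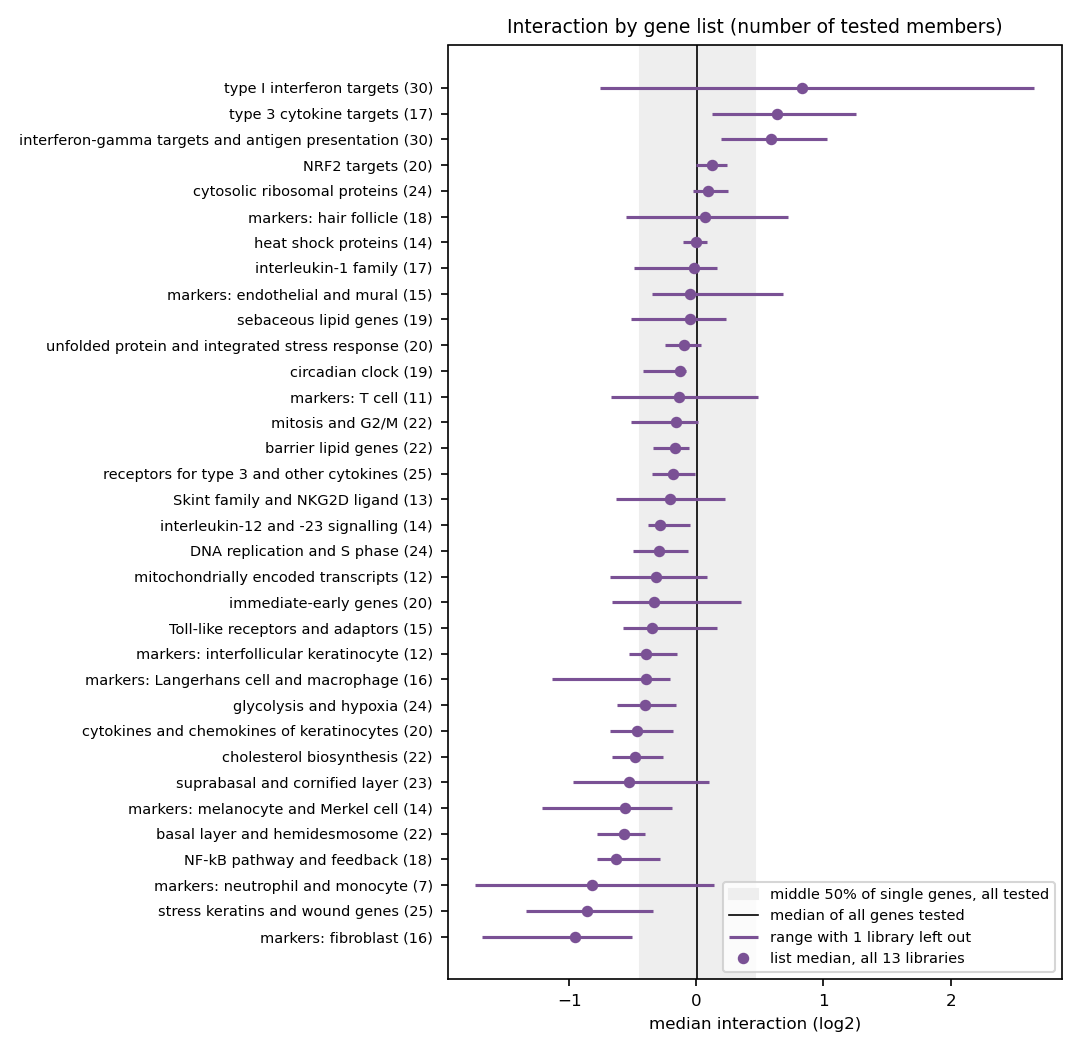
Median interaction (log2) of the tested members of 34 gene lists (points), with the range of that median when 1 library was left out (lines), the median of all genes tested (vertical line) and the middle 50% of single genes (grey band). The line of the type I interferon targets runs from -0.75 to 2.66 and crosses 0; that of the basal layer genes, from -0.78 to -0.40, does not.

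Genes of the basal layer and its anchorage to the basement membrane had the most uniform negative values. Of 22 members 21 were negative and 1, Itga2, was positive, with a median of -0.56 that ranged from -0.78 to -0.40 with 1 library left out. None passed the interaction test, and 4 had an unadjusted p under 0.05. Among them were Itga6 (-0.90), an integrin of the hemidesmosome, Plec (-0.73), which links it to keratin filaments, and Col7a1 (-0.95), the anchoring fibril collagen. In the floxed response 8 members fell and 1 rose, and in the K14Cre response 16 fell and 1 rose, where 2.90% of all genes tested fell in floxed and 7.69% in K14Cre. The summed level was 28252 to 50787 CPM in floxed untreated, 46889 to 76472 in K14Cre untreated, 14952 to 23043 in floxed Aldara and 14560 to 23521 in K14Cre Aldara libraries. The genotypes overlapped in both states, and treated libraries lay below untreated ones. The median difference between genotypes was 0.46 without treatment and -0.10 after Aldara. Krt5 and Krt14, the keratins of the basal layer, had interactions of -0.43 (SE 0.43) and -0.70 (SE 0.49).

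The NF-kB pathway and its feedback genes showed 14 negative and 4 positive members and a median of -0.63, from -0.78 to -0.29 with 1 library left out and -0.10 without K14Cre untreated replicates 3 and 4. The subunit Rel (-1.51, unadjusted p = 0.0103) and the adhesion molecule Icam1 (-1.17, unadjusted p = 0.0325) stood beside Tnip3 with an unadjusted p under 0.05. Rel had 59.0, 74.6 and 87.2 CPM in floxed untreated, 35.6, 52.6 and 62.5 in floxed Aldara, 144, 118, 157 and 265 in K14Cre untreated and 22.3, 65.3 and 35.4 in K14Cre Aldara libraries. Untreated K14Cre libraries lay above all the others. Of the 18 genes, 1 fell in the floxed response and 8 fell in the K14Cre response. Their summed level was 1740 to 3516 CPM in floxed untreated and 3017 to 7146 in K14Cre untreated libraries, with 921 to 1853 and 1698 to 1790 after Aldara.

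Stress keratins and wound genes had 22 negative and 3 positive members of 25 and a median of -0.86, from -1.34 without K14Cre Aldara replicate 2 to -0.34 without floxed Aldara replicate 3. Epgn, a ligand of the EGF receptor, had 154, 412 and 307 CPM in floxed untreated, 65.3, 353 and 174 in floxed Aldara, 578, 403, 1674 and 1876 in K14Cre untreated and 136, 201 and 177 in K14Cre Aldara libraries. K14Cre untreated replicates 3 and 4 carried the highest levels, and its interaction of -2.17 (SE 0.82, unadjusted p = 0.0189) was -0.96 without them. Plaur, the urokinase receptor (-4.22), the simple epithelial keratin Krt8 (-5.29, or -1.53 without K14Cre untreated replicate 1) and the AP-1 member Fosl1 (-1.74) also had an unadjusted p under 0.05. Krt6b, a wound keratin, was at 0.442, 0.533 and 0.496 CPM in floxed untreated libraries and at 1.92, 32.3 and 28.8 CPM after Aldara, a rise of 5.40 (adjusted p = 0.0442). In K14Cre it was at 0.343, 3.76, 3.58 and 49.8 CPM without treatment and 12, 34.3 and 91.6 CPM after Aldara, a value of 1.66 (adjusted p = 0.364). One K14Cre untreated library thus overlapped the treated ones, and the interaction was -3.74 (SE 1.81, edgeR unadjusted p = 0.0562), or -1.20 without that library. Krt6b was named for its large floxed rise, so a negative interaction is partly built into that choice.

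Cholesterol synthesis had 15 negative and 7 positive members of 22 tested, and a median of -0.48, or -0.15 without K14Cre untreated replicates 3 and 4. In the floxed response 9 members rose and 0 fell, and in the K14Cre response 6 rose and 2 fell. An unadjusted p under 0.05 was reached by 3 members, all negative, Sqle and Insig1 among them. Insig1, a feedback regulator of the pathway, had 30.3, 23.3 and 44.0 CPM in floxed untreated, 67.7, 60.2 and 66.0 in floxed Aldara, 42.3, 32.7, 59.0 and 53.0 in K14Cre untreated and 55.8, 41.5 and 42.5 in K14Cre Aldara libraries. Treated and untreated libraries were apart in floxed and overlapped in K14Cre, and its interaction was -0.99 (SE 0.38, edgeR unadjusted p = 0.0204). Insig1 rose in floxed by 0.99 (adjusted p = 0.0470), and its K14Cre value was -0.01 (adjusted p = 0.990).

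Among heat shock proteins the median interaction was -0.0044, with 7 positive and 7 negative members, and Hspb1, a small heat shock protein of the epidermis, was the 1 member separated pair by pair. It had 364, 419 and 486 CPM in floxed untreated libraries and 167, 173 and 171 CPM after Aldara. It had 629, 491, 559 and 583 CPM in K14Cre untreated libraries and 349, 358 and 357 CPM after Aldara. K14Cre libraries lay above floxed ones in both states without overlap. Hspb1 fell in floxed by 1.31 (SE 0.19, adjusted p = 0.00296) and in K14Cre by 0.67 (SE 0.18, adjusted p = 0.0202), and the interaction was 0.64 (SE 0.26, 95% interval 0.08 to 1.19, unadjusted p = 0.0272, edgeR adjusted p = 1.00). It stayed between 0.51 and 0.73 with 1 library left out.

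Of the markers of other cells that a sort of keratinocytes could hold, fibroblast markers had the most negative values. Of 16 markers 15 were negative and 1, Vim, was positive, with a median of -0.95 (from -1.68 without K14Cre Aldara replicate 3 to -0.50 without K14Cre Aldara replicate 1). An unadjusted p under 0.05 was reached by 5, which were Col1a1 (-3.23), Col1a2 (-1.96), Lum (-2.71), Pdgfra (-3.09) and Dpt (-3.48). Col1a1 had 194, 156 and 252 CPM in floxed untreated, 4.53, 51.1 and 98.6 in floxed Aldara, 218, 491, 449 and 316 in K14Cre untreated and 0.102, 12.6 and 17.2 in K14Cre Aldara libraries. Treated libraries were lower in both genotypes, and the floxed and K14Cre treated ranges overlapped. In the floxed response 3 markers fell, and in the K14Cre response 9 fell and 1 rose.

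Markers of melanocytes and Merkel cells summed to 243 to 439 CPM in floxed untreated, 160 to 618 in floxed Aldara, 47.9 to 941 in K14Cre untreated and 37.7 to 103 in K14Cre Aldara libraries. K14Cre untreated replicate 1 and floxed Aldara replicate 3 were high in Krt8 (439 and 208 CPM) and Krt18 (399 and 289 CPM), keratins of Merkel cells and of simple epithelia. Krt19, another such keratin, had 126, 2.67 and 153 CPM in floxed untreated, 6.96, 6.39 and 141 in floxed Aldara, and 463, 3.56, 34.5 and 5.19 in K14Cre untreated libraries. In the K14Cre Aldara libraries it had 4, 0 and 0 counts. The Krt19 level was very uneven between the libraries of each of the other groups, so its fitted interaction is not given as a size. The summed T cell markers lay between 50.9 and 91.4 CPM in all libraries, and those of neutrophils and monocytes between 38.2 and 308 CPM. Endothelial and mural markers summed to 36.1 to 348 CPM. Hair follicle markers summed to 2300 to 5811 CPM, with a median interaction of 0.07. How far follicle cells entered the sort was not tested.

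**Figure D5:**
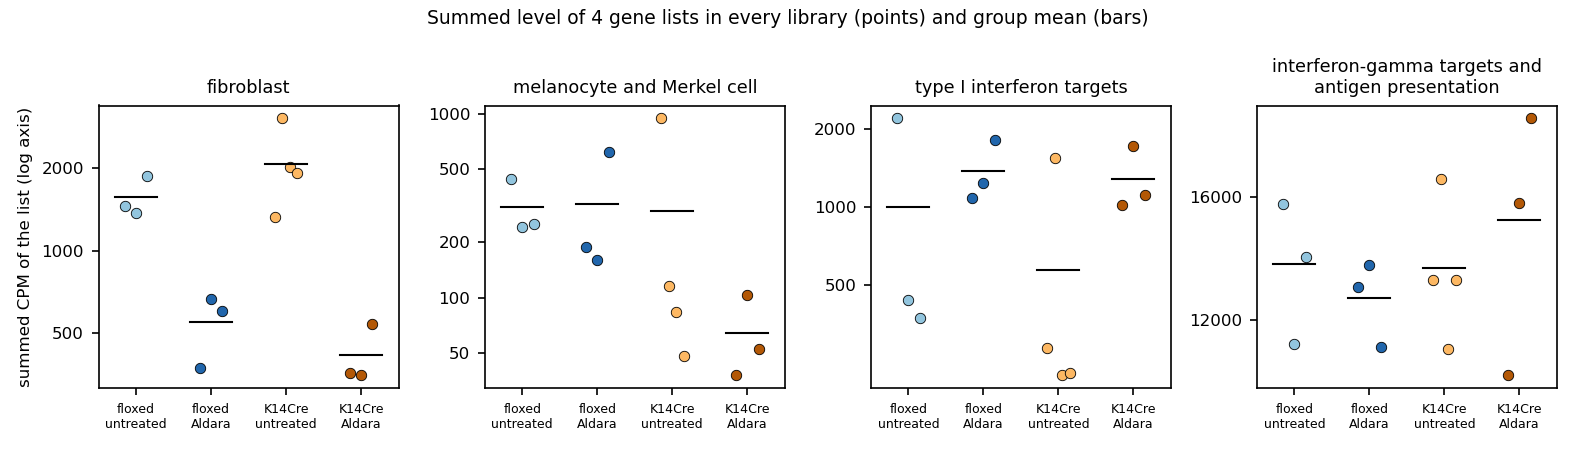
Summed CPM of 4 gene lists in every library (points, log axis) with the mean of each group (bars). Fibroblast markers were lower after Aldara in both genotypes. The melanocyte and Merkel cell markers were highest in K14Cre untreated replicate 1 and floxed Aldara replicate 3. Among the untreated libraries the type I interferon targets were high in floxed replicate 1 and K14Cre replicate 2.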

How the data were processed

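RNA of sorted keratinocytes was made into Smart-seq2 libraries and sequenced as single-end 100-base reads on a NovaSeq, per the labels' protocols. The deposited table holds raw counts per gene that the authors made with STAR and featureCounts of Subread on GRCm38, per the submitters' processing notes; their versions, whether strand was used and how multiply matching reads were handled are not given in the sources used, so counts of overlapping or near-identical genes are uncertain. The minimum of 10 counts in edgeR's filterByExpr left 16051 of 25746 genes.

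Counts were scaled by TMM and fitted with edgeR 4.0.16 in R 4.3.3 by the quasi-likelihood test over all 13 libraries in 4 groups, without a replicate block. The interaction and each Aldara response were contrasts of that fit, adjusted by Benjamini-Hochberg over all genes tested (threshold 0.05). Every adjusted or unadjusted p without another name comes from this fit. SEs were derived from the estimate and its F statistic (the absolute estimate over the root of F), and 95% intervals from those SEs. CPM are TMM-adjusted. The script was tested on simulated data. Limma 3.58.1 (voom), DESeq2 1.42.0, other scaling factors, other count filters, a replicate block and leaving out libraries were the alternatives; leaving out K14Cre untreated replicates 3 and 4 was chosen after seeing the data. Of 18 same-numbered pairs, 6 had a correlation of deviations over 0.1 and 12 did not (from -0.16 to 0.42). Not every pair passed, so the numbers were not taken as pairs.

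Named genes were Il12rb2, Il12rb1, Krt5, Krt14, Krt1 and Krt10, the 12 smallest interaction p in each direction at an average log2 CPM of 3 or more, the 3 smallest in each of 34 lists and the 6 strongest responses per genotype and direction. Grk3, H2-Eb1, Itga2, Vim, Col7a1, Fosl1, Pdgfra and Dpt were named after their values were seen. A few genes that met the rule are not reported here. The lists hold 670 distinct symbols; of 691 entries 690 were found, 8 of them through a RefSeq synonym. Members and lists were chosen with earlier results of these data known, so lists are described by counts and medians, with no test. Positions are from GENCODE M21, which held 25712 of the 25746 identifiers.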

Additional observations from a re-analysis of the deposited data

Results flagged for a closer look

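In the 4 K14Cre untreated libraries, the only group large enough for the comparison, a library was marked when its gap to the nearest other took up more of the group's range than Dixon's 95% critical value allows. This marked 17 of the 152 named genes, marker sums and library measures examined (11.2%). For normally distributed values chance marks about 5%, or 1 in 20 groups. Gene levels and marker sums were compared as CPM, without a log scale, and all 17 marks were high values. The 11.2% therefore cannot be read as an excess over 5%. Genes that share a library are also not independent.

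Replicate 2 was marked most often, by interferon-linked genes. It held Cxcl9 at 20.2 CPM (2.95 to 5.49 in the others), Cxcl10 at 67.3 (28.2 to 32.5), Xaf1 at 41.2 (4.03 to 8.24), Bst2 at 38.8 (0.467 to 3.27) and Isg15 at 25.5 (0.622 to 1.29). It also held C1qc, a complement gene of macrophages, at 5.35 (0 to 0.0641), the desaturase Scd3 at 15.4 (4.43 to 5.83) and Rnf217 at 14.3 (11.7 to 12).

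Replicate 1 stood high in simple epithelial keratins, with Krt8 at 439 CPM (3.96 to 17.5), Krt18 at 399 (1.41 to 24.3) and Krt19 at 463 (3.56 to 34.5), and its summed melanocyte and Merkel cell markers, which include Krt8 and Krt18, were 941 CPM (47.9 to 116). Its level of Pfkfb3, a glycolytic regulator, was 54.4 (26.6 to 31.1). Replicate 4 held Krt6b at 49.8 CPM (0.343 to 3.76), S100a8 at 12.2 (0.544 to 0.792) and Sdr9c7 at 2.11 (0 in the others). Replicate 3 held the transcription factor Dlx3 at 3.19 CPM (0.192 to 0.600). No difference between the genotypes' responses passed the edgeR interaction test.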

How the results depend on the processing

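The interaction gave 0 calls in edgeR under the other scalings, filters and left-out sets, apart from 1 (Ccdc80) without floxed untreated replicate 3, so leaving out 1 library gave 0 to 1; DESeq2 gave 2. With the replicate block it gave 0 calls, with 433 genes at an unadjusted p under 0.05 (2.70%), the Il12rb2 interaction was -1.31, and the counts of Aldara calls were 831 in floxed and 1919 in K14Cre. Leaving out 1 library moved the floxed calls from 215 to 1451, the K14Cre calls from 1650 to 2764, the Il12rb2 interaction from -1.46 to 0.0693 and the genes with pairs apart from 203 to 388 (137 with all libraries; fewer libraries make fewer pairs to separate). DESeq2 gave 2041 floxed calls, and voom with quality weights gave 2029 floxed and 3900 K14Cre calls; the cause was not tested. Without the 3 libraries high in Gm10800 there were 270 floxed calls, 1466 K14Cre calls and 1328 genes with pairs apart, and without K14Cre untreated replicates 3 and 4 there were 1477 K14Cre calls and 478 genes with pairs apart; fewer samples entered both. At an average log2 CPM up to 1 the median half-width of the interaction's interval was 5.44, against 0.75 above 7, so differences in low genes were not detectable unless very large.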

Other observations

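The 2 responses are given side by side for 3 further lists, and the difference between their counts was not tested. Of 19 sebaceous lipid genes, 10 rose in floxed and 12 in K14Cre libraries and 0 fell, where 4.15% and 7.81% of all genes tested rose, with medians of 1.98 and 2.15 and a median interaction of -0.05. An unadjusted interaction p under 0.05 was reached by 3 members, 1 positive and 2 negative. Their summed level was 2092 to 3963 CPM in floxed untreated, 6890 to 12808 in floxed Aldara, 1351 to 3824 in K14Cre untreated and 7112 to 8636 in K14Cre Aldara libraries, so treated libraries lay above untreated ones in both. Elovl4, an elongase of very long fatty acids, had 238, 177 and 217 CPM in floxed untreated, 629, 1073 and 879 in floxed Aldara, 154, 276, 272 and 170 in K14Cre untreated and 530, 414 and 498 in K14Cre Aldara libraries. It rose in both, by 2.03 and 1.14 (edgeR adjusted p = 0.00290 and 0.00761), with every treated floxed library above every treated K14Cre one and an interaction of -0.89 (SE 0.38, edgeR unadjusted p = 0.0321, adjusted p = 1.00). NRF2 targets, the genes of the oxidative stress response, had medians of 1.08 and 1.12, with 7 risen in floxed and 11 in K14Cre of 20, beside the same 4.15% and 7.81%. Skint genes are linked to the epidermal gamma-delta T cells of mice, and their list also held a ligand of the receptor NKG2D. This list had medians of -3.13 and -3.18 over 13 tested members. In each genotype 7 members fell, where 2.90% and 7.69% of all genes tested fell. The interaction was positive for 4 members and negative for 9, and 1 positive member reached an unadjusted interaction p under 0.05. The list's median interaction was -0.20, or -1.01 when the 3 libraries high in Gm10800 were left out. Leaving out K14Cre untreated replicates 3 and 4 gave 0.34. Skint7 had 12, 40.4 and 29.4 CPM in floxed untreated, 2.94, 1.86 and 0.487 in floxed Aldara, 43.7, 18.8, 29.5 and 33.4 in K14Cre untreated and 0, 0.286 and 1.64 in K14Cre Aldara libraries. Its interaction was negative, at -1.56.

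In 2 other lists the K14Cre untreated libraries were split. DNA replication genes summed to 782 and 1062 CPM in K14Cre untreated replicates 1 and 2 and to 1726 and 1869 in replicates 3 and 4, against 982 to 1105 in floxed untreated and 2263 to 2761 in all Aldara libraries. Of 24 members 12 rose in floxed and 8 in K14Cre, and the median interaction was -0.29, or 0.28 without replicates 3 and 4. Slbp, which binds histone mRNA, had 41.5, 40.8 and 40.9 CPM in floxed untreated, 80.3, 100 and 101 in floxed Aldara, 43.3, 49.3, 84.4 and 73.4 in K14Cre untreated and 94.8, 83.8 and 63.6 in K14Cre Aldara libraries. Circadian clock genes summed to 1663 and 1209 CPM in replicates 1 and 2 and to 2078 and 2138 in replicates 3 and 4, against 967 to 1598 in floxed untreated libraries. Dbp, a clock output factor, was at 10.2 and 20 CPM in replicates 1 and 2 and at 73.3 and 56.6 in replicates 3 and 4, against 21.2 to 41.4 in floxed untreated, 20.8 to 24.4 in floxed Aldara and 0.102 to 9.37 in K14Cre Aldara libraries. Its interaction was -2.34 (SE 1.13), or -0.93 without replicates 3 and 4.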
